A study of Homo sapiens with 4 samples.

Results

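In all, 10 genes of Wnt signaling were followed in PC3 cells after METTL3 knockdown. They were the rows of the deposited count table named LEF1, TCF7, TCF7L1, TCF7L2, CTNNB1, AXIN1, AXIN2, DKK1, LRP6 and WNT5A, which are 10 of the 60544 genes in the table, and each was found once. LEF1 was included because it has been reported as a METTL3 target in prostate cancer. METTL3 is the catalytic subunit of the enzyme that adds m6A, the methylated adenosine N6-methyladenosine, to messenger RNA. PC3 is an established human prostate cancer cell line. The control group, labelled shNC, and the knockdown group, labelled sh812, held 2 libraries of poly(A) RNA each, and no drug treatment or time point is given. The group labelled sh812 was read as the knockdown because the study names METTL3 knockdown against control and gives no other label, so the knockdown rests on 1 hairpin label. The labels do not say whether the cells were a pool or a clone, or whether the replicates were separate cultures. P-values then measure the spread between these libraries, which may be technical.

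In canonical Wnt signaling a secreted Wnt ligand binds a Frizzled receptor and the co-receptor LRP5 or LRP6, which disables a cytoplasmic complex that otherwise marks beta-catenin for destruction. Beta-catenin, the product of CTNNB1, then enters the nucleus and activates genes through the DNA-binding factors of the LEF/TCF family. Some ligands, WNT5A among them, are known chiefly for signaling that does not use beta-catenin, and DKK1 is a secreted protein that blocks LRP5 and LRP6. DKK1 is also studied in prostate cancer for its effect on bone.

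The libraries held 31450648 to 37041330 counts. METTL3 itself was counted 1682 and 1379 times in shNC against 269 and 313 times in sh812. In CPM, the count scaled to the adjusted library size, this is 18.7% of shNC, a log2 fold change of -2.42 (SE 0.11, edgeR adjusted p = 5.54e-14). TOX4 overlaps METTL3 on the opposite strand and was at 103 CPM in shNC against 102 CPM in sh812. Epithelial markers were abundant in all 4 libraries, with a summed level of 805 to 910 CPM for KRT8, KRT18, KRT19 and EPCAM in shNC and 942 to 999 CPM in sh812. Of the prostate luminal markers reported here, KLK3 had 0 counts in every library, and HOXB13 was at 164 CPM in shNC against 158 CPM in sh812. The leukocyte list (PTPRC, CD3E, CD68) summed to at most 0.87 CPM. The endothelial list summed to 23.8 CPM in both shNC libraries and to 32.9 and 38.8 CPM in sh812, nearly all of it PECAM1, while VWF and CDH5 did not exceed 6 counts. The fibroblast list summed to 46.7 to 53 CPM over the 4 libraries. Its genes did not all go the same way, so the sum does not show that each was unchanged. The part of these differences in the results on Wnt genes was not tested. Of counts between 1 and 20, 69.5% to 69.9% were even in each library, against 53.1% to 54.4% of counts of 100 or more, so low counts may hold fewer independent fragments than their number.

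All 10 genes passed the filter on low counts. WNT5A and TCF7L1 fell in sh812, to 69% and 60.1% of their shNC levels. None of the 10 rose by the same test. The most abundant of them, DKK1 and CTNNB1, were at 98.8% and 107% of shNC, and LEF1, the least abundant, was at 165% with a wide interval. Calls are adjusted p-values under 0.05 in the quasi-likelihood test of edgeR, adjusted over all 16802 genes tested. This made 2 of 10 genes, both lower, against 10.8% of all genes called in either direction, 5.43% called higher and 5.42% called lower. The sh812 libraries lay entirely on one side of the shNC libraries for 7 of the 10 genes, against 53.6% of all genes tested. Over the 10 genes the log2 fold changes had a median of 0.016, against -0.006 over all genes tested. With scaling to library size alone, the calls over all genes split into 561 higher and 1328 lower, in place of 912 and 910, and the 2 calls among the 10 genes were the same in number and direction. In bulk RNA, fewer cells that express a gene and less RNA per cell cannot be told apart.

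**Figure D1:**
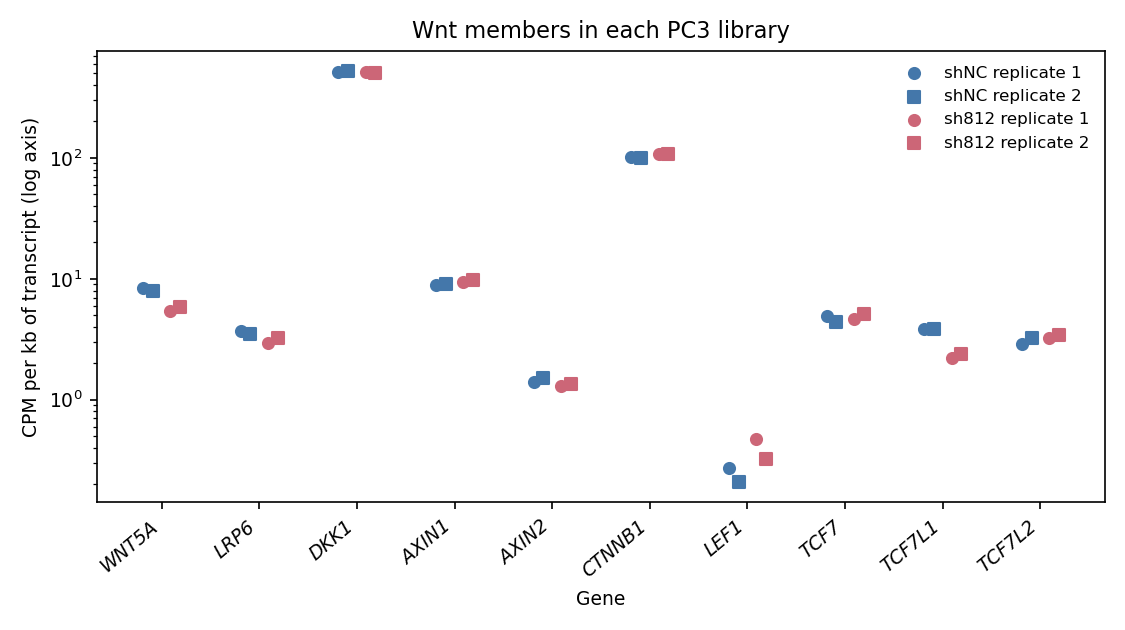
CPM per kb of the longest annotated coding transcript on a log axis, for each of the 10 genes in each of the 4 libraries (circles replicate 1, squares replicate 2). DKK1 lies between 506 and 520 and LEF1 between 0.209 and 0.475, and the groups separate most visibly for WNT5A and TCF7L1.

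**Figure D2:**
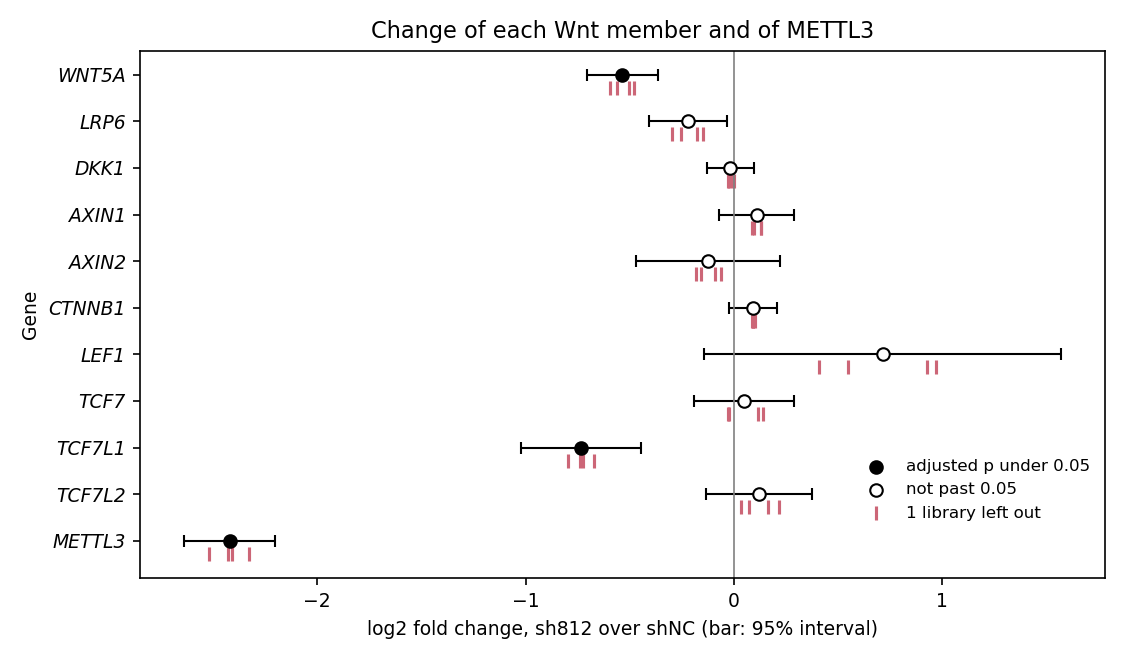
Fitted log2 fold change of sh812 over shNC for the 10 genes and METTL3, with bars for the 95% interval and short red marks for the 4 fits that leave out 1 library each. WNT5A at -0.54 and TCF7L1 at -0.73 are the filled points among the 10 genes, and the interval of LEF1 runs from -0.14 to 1.57.

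Per kb of the longest annotated coding transcript, the 10 genes spanned a wide range. In shNC the order was DKK1 (mean 515 CPM per kb), CTNNB1 (101), AXIN1 (8.93), WNT5A (8.16), TCF7 (4.68), TCF7L1 (3.83), LRP6 (3.59), TCF7L2 (3.07), AXIN2 (1.45) and LEF1 (0.241). No neighbours in this order overlapped between the 2 shNC libraries. In sh812 TCF7L1 stood at 2.30 CPM per kb, below both TCF7L2 (3.33) and LRP6 (3.08), whose libraries overlapped each other. Over the 4 libraries DKK1 had a higher level per kb than 99.4% of the genes tested that have a length, CTNNB1 than 96.1%, and LEF1 than 13%. The order depends on the length used. With the summed length of all annotated exons, TCF7 was at 1.55 CPM per kb in shNC, below TCF7L1 (2.58) and TCF7L2 (1.88), and WNT5A (6.81) was above AXIN1 (4.35).

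The ligand gene WNT5A fell. WNT5A (ENSG00000114251) is annotated at chromosome 3, 55465715 to 55490539, minus strand (GENCODE 29, GRCh38). It was measured at 51.6 and 49.2 CPM in shNC and at 33.4 and 36.2 CPM in sh812. Both sh812 libraries were below both shNC libraries, and the spread within a group was small beside the difference (50.4 ± 1.65 against 34.8 ± 1.98 CPM, SD, n = 2). The log2 fold change was -0.54 (SE 0.08, edgeR adjusted p = 0.000117). Each alternative that gave a new test also called it lower, with log2 fold changes between -0.60 (sh812 replicate 2 left out) and -0.48 (sh812 replicate 1 left out).

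LRP6, the co-receptor that canonical ligands and DKK1 share, was measured at 37 and 35 CPM in shNC and at 29.3 and 32.5 CPM in sh812. The sh812 libraries were again the lower ones. The difference did not pass the threshold (log2 fold change -0.22, SE 0.09, edgeR adjusted p = 0.12), and its 95% interval runs from a fold of 0.755 to 0.976. The unadjusted p was 0.0218.

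The inhibitor gene DKK1 was expressed at a high and nearly equal level in all 4 libraries. DKK1 (ENSG00000107984) is annotated at chromosome 10, 52314296 to 52318042, plus strand. It had 34702 and 29408 counts in shNC and 32197 and 32424 in sh812, or 915, 930, 917 and 906 CPM in that order. The groups overlapped. The log2 fold change was -0.02 (SE 0.05, edgeR adjusted p = 0.895), and the 95% interval runs from a fold of 0.915 to 1.07. With the length trend removed the log2 fold change was -0.10 (edgeR adjusted p = 0.214). The annotation places exons of PRKG1-AS1 over DKK1 on the opposite strand, and that gene was at 2.74 CPM in shNC against 2.43 CPM in sh812. Patterns closest to that of DKK1 over the 4 libraries were sought by root mean square distance of centred log2 CPM. Only genes with a mean of at least 5 CPM were used. The closest were MYO1C (0.00491), TUBB2A (0.00503) and PRCP (0.00512). Their groups overlapped as well, which follows from picking them for likeness to DKK1.

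The stretch before the DKK1 start is shown because, of the members' promoters that were searched, it alone held the core motif of the LEF/TCF factors. This motif is CTTTGA or its reverse complement TCAAAG. RefSeq (GRCh38.p14) gave promoters for 8 of the 10 genes, 12 in all, and the search covered the 250 bases before each start on both strands. No promoter was given for AXIN2 and LRP6, so these genes were not searched. Of 35116 promoters, 11.2% hold the motif. In DKK1, TCAAAG begins 149 bases and CTTTGA 95 bases before the start, and capitals mark both. The longer form CTTTGATC, present in 0.547% of promoters and overlapping the shorter motif, was not matched. A match is a description of these letters, and binding was not measured. The stretch is chr10:52314031-52314280 on the plus strand.
DKK1: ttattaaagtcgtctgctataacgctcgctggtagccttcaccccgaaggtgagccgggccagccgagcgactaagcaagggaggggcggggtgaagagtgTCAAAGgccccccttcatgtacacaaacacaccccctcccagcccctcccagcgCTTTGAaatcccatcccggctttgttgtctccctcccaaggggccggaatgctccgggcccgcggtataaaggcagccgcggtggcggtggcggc

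The destruction complex genes differed by less than the test could call. AXIN1, which encodes the scaffold of the complex, was measured at 32.2 and 32.9 CPM in shNC and at 34.5 and 35.6 CPM in sh812. Both sh812 libraries were slightly higher (log2 fold change 0.11, SE 0.09, edgeR adjusted p = 0.481). AXIN2 encodes a related scaffold and is a commonly used target gene of beta-catenin signaling. It was measured at 5.93 and 6.42 CPM in shNC and at 5.53 and 5.78 CPM in sh812. The sh812 libraries were slightly lower (log2 fold change -0.13, SE 0.17, edgeR adjusted p = 0.712). The 95% interval of AXIN2 runs from a fold of 0.721 to 1.17, with 194 to 225 counts per library.

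CTNNB1, the gene of beta-catenin, was measured at 481 and 475 CPM in shNC and at 511 and 509 CPM in sh812. Both sh812 libraries were above both shNC libraries by more than the spread within either group (478 ± 4.19 against 510 ± 1.54 CPM, SD, n = 2). The fitted difference was small and did not pass the threshold (log2 fold change 0.09, SE 0.06, edgeR adjusted p = 0.32). It passed when each library's trend on exon length was removed (log2 fold change 0.17, edgeR adjusted p = 0.0427). Across the 12257 genes whose mean log2 CPM exceeded 1, exon length and log2 fold change had a Spearman correlation of -0.30 between the groups, while between replicates (2 against 1) it was -0.30 within shNC and 0.031 within sh812. Genes are not independent replicates, and the part of this trend in the value of CTNNB1 was not tested beyond that fit.

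The LEF/TCF factors bind DNA for the pathway. Without beta-catenin they can act as repressors, and TCF7L1 is known mainly as a repressor. TCF7L1 (ENSG00000152284) is annotated at chromosome 2, 85133410 to 85310388, plus strand. It was the family member that fell, from 11.3 and 11.4 CPM in shNC to 6.55 and 7.13 CPM in sh812. The groups were far apart beside their spread (11.4 ± 0.0554 against 6.84 ± 0.406 CPM, SD, n = 2). The log2 fold change was -0.73 (SE 0.14, edgeR adjusted p = 0.00126). Each alternative with a new test called it lower, with log2 fold changes between -0.80 (sh812 replicate 2 left out) and -0.67 (sh812 replicate 1 left out).

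The stretches before the starts of the fallen genes TCF7L1 and WNT5A are shown for comparison with DKK1. Neither holds CTTTGA or TCAAAG, and that says only that these letters are not in this window. The TCF7L1 stretch is chr2:85133142-85133391 on the plus strand, with a G and C share of 72%. The WNT5A stretch is chr3:55481399-55481648 on the minus strand, with a share of 64.4%, and belongs to the more downstream of 2 starts. The stretch before the other WNT5A start, not shown, had a share of 52.8%. The median share over all promoters was 58%, so the 2 WNT5A stretches lay on both sides of it.
TCF7L1: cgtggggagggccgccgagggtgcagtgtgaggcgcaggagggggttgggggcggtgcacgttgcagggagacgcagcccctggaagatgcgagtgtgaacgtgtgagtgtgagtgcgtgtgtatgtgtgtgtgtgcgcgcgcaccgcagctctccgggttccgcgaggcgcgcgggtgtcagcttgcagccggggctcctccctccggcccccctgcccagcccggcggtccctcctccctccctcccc
WNT5A: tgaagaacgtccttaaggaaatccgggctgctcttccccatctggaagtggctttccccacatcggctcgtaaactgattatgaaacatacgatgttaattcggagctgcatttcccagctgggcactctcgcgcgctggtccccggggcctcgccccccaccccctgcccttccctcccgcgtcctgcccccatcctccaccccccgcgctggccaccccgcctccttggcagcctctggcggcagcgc

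LEF1, the founding member of the family, was barely expressed. LEF1 (ENSG00000138795) is annotated at chromosome 4, 108047545 to 108168956, minus strand. It had 36 and 23 counts in shNC and 58 and 40 in sh812, or 0.949, 0.727, 1.65 and 1.12 CPM in that order. Both sh812 libraries were above both shNC libraries, and the spread within sh812 was wide (0.838 ± 0.157 against 1.39 ± 0.378 CPM, SD, n = 2). The log2 fold change of 0.72 (SE 0.42) did not pass the threshold (edgeR adjusted p = 0.302, unadjusted p 0.0978), and its 95% interval runs from a fold of 0.907 to 2.97. No change lies inside that interval, so the direction for LEF1 is not settled. Leaving out sh812 replicate 1 gave 0.41, and leaving out sh812 replicate 2 gave 0.97. LEF1-AS1, annotated over LEF1 on the opposite strand, had at most 6 counts in a library. Among genes with a mean of at least 5 CPM, the patterns closest to that of LEF1 over the 4 libraries were those of SCEL, DHRS9 and SMIM4, with distances of 0.102, 0.122 and 0.129 on the log2 scale. They were picked for this likeness, so their own higher values in sh812 (179%, 175% and 154% of shNC) follow from the choice and are no support for a rise of LEF1.

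The other family members, TCF7 and TCF7L2, gave no call. TCF7, best known from T cells, was measured at 16.5 and 14.6 CPM in shNC and at 15.4 and 16.9 CPM in sh812, and the groups overlapped (log2 fold change 0.05, SE 0.12, edgeR adjusted p = 0.852). Its exons overlap those of SKP1 on the opposite strand, which was at 153 CPM in shNC against 169 CPM in sh812, and whether the counting used strand, which the library kit marks, is not given in the sources used here. TCF7L2, the main family member of intestinal epithelium, was measured at 11.9 and 13.5 CPM in shNC and at 13.4 and 14.2 CPM in sh812. These groups also overlapped (log2 fold change 0.12, SE 0.12, edgeR adjusted p = 0.609). The 95% intervals run from a fold of 0.875 to 1.22 for TCF7 and from 0.911 to 1.30 for TCF7L2.

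As a share of the family's summed level per kb of transcript, TCF7L1 made up 32% and 32.8% in shNC against 21% and 21.4% in sh812. TCF7L2 made up 24.2% and 27.8%, then 30.7% and 30.6%. TCF7 made up 41.5% and 37.5%, then 43.9% and 45.2%. LEF1 did not exceed 4.51% in any library. The summed level of the family was 11.9 and 11.7 CPM per kb in shNC and 10.5 and 11.2 CPM per kb in sh812. Shares of a sum are tied to each other, so the higher shares of TCF7 and TCF7L2 in sh812 accompany the lower share of TCF7L1 and are no separate result. With summed exon lengths TCF7L1 had the largest share in shNC (41.7% and 41.9%) and TCF7L2 in sh812 (37.4% and 37.6%).

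**Figure D3:**
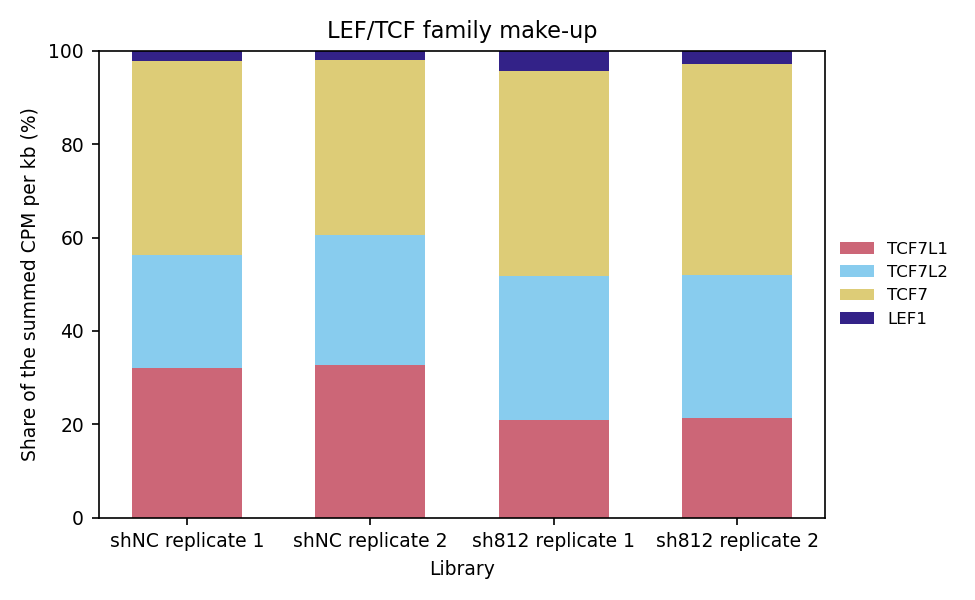
Stacked bars of the share (%) that TCF7L1, TCF7L2, TCF7 and LEF1 take of their summed CPM per kb of transcript in each of the 4 libraries. The TCF7L1 segment is 32% and 32.8% in shNC and 21% and 21.4% in sh812.

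The rest of the pathway was read from a list of 94 other Wnt genes, grouped by role. Of these, 67 passed the filter on low counts, and the 27 others had at most 42 counts in any library. In sh812 3 of the 67 rose and 8 fell, which is 16.4% against 10.8% of all genes tested. The counts by role that follow stand beside the same 10.8%, with 5.43% of all genes called higher and 5.42% lower. The median log2 fold change was -0.04, and that of all genes was -0.006. With the length trend removed the list median was -0.002 and that of all genes -0.01, so the list was then not below all genes. The number of calls depended on the libraries, and leaving out a library moved it both in the list and over all genes. With library size alone 17 of the 67 genes were called, of which 14 were lower. The same scaling called 1889 of all 16802 genes tested, of which 1328 were lower. WNT9A, FZD6 and RNF43 were called in the same direction in each alternative with a new test.

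Among the 18 other ligand genes 9 were tested, and 1 rose and 1 fell. WNT9A fell from 12.8 and 11.8 CPM in shNC to 7.58 and 7.21 CPM in sh812 (log2 fold change -0.74, SE 0.14, edgeR adjusted p = 0.000866). WNT7B, which had the highest level per kb of these ligands, rose from 43.8 and 50 CPM to 58.5 and 57.9 CPM (log2 fold change 0.31, SE 0.08, edgeR adjusted p = 0.0119). The WNT7B call was lost without shNC replicate 1 and without either sh812 library, with adjusted p-values of 0.0691, 0.119 and 0.0902. The called ligand genes thus went in both directions. Of the genes for ligand export, PORCN, the enzyme that attaches a fatty acid to Wnt proteins, rose from 33.5 and 33 CPM to 41.9 and 43.6 CPM (log2 fold change 0.36, edgeR adjusted p = 0.00603, and 0.111 without sh812 replicate 2). WLS, which carries the ligands to the cell surface, was at 80.9 CPM in shNC against 82.6 CPM in sh812.

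Among the 14 other receptor genes 12 were tested, and 1 fell. FZD6, a Frizzled receptor, fell from 109 and 108 CPM in shNC to 75.9 and 82.7 CPM in sh812 (log2 fold change -0.45, SE 0.07, edgeR adjusted p = 8.31e-05). FZD8 had the highest level per kb of the receptors, at 139 CPM per kb in shNC and 146 CPM per kb in sh812, and its groups overlapped (log2 fold change 0.07, edgeR adjusted p = 0.48, and 0.0162 without shNC replicate 2). The median log2 fold change of the tested receptors was -0.02, against -0.006 over all genes tested.

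RNF43 encodes a ubiquitin ligase that removes Frizzled receptors from the cell surface. RNF43 was measured at 1.5 and 2.94 CPM in shNC and at 5.13 and 5 CPM in sh812. Both sh812 libraries were higher, and the shNC libraries were far apart from each other (log2 fold change 1.21, SE 0.25, edgeR adjusted p = 0.00289). Leaving out shNC replicate 1 gave a fitted value of 0.78, and leaving out shNC replicate 2 gave 1.76. Its exons overlap those of SUPT4H1 on the same strand and of TSPOAP1-AS1 on the other. Other named genes of the list also have exon overlaps. Among them are PYGO2 with SHC1 on the same strand, and FZD6 with BAALC-AS1 and BCL9L with UPK2 on the other. The part of such overlaps in the counts of RNF43 and of these genes was not tested. It was the only one of 4 tested genes of the R-spondin group that was called. The receptor gene LGR4 of that group was at 43 CPM in shNC against 45.1 CPM in sh812. None of the 5 tested genes for other secreted or surface inhibitors was called in edgeR. KREMEN1, a receptor for DKK1 and the most abundant per kb of these, was at 20.3 CPM in shNC against 16.8 CPM in sh812 (edgeR adjusted p = 0.101).

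Of 14 tested genes for the cytoplasmic relay and the destruction complex, 2 fell. DVL3, a Dishevelled protein that passes the signal on from the receptor, went from 120 and 113 CPM to 92.6 and 93.7 CPM (log2 fold change -0.32, edgeR adjusted p = 0.00204, and 0.0629 without sh812 replicate 1). TNKS2, a tankyrase that marks axin for degradation, went from 87 and 80.9 CPM to 68.8 and 68.3 CPM (log2 fold change -0.29, edgeR adjusted p = 0.00728). The TNKS2 value gave 0.102 without sh812 replicate 1 and 0.11 without sh812 replicate 2. DVL1, the most abundant gene of this group per kb, was at 333 CPM in shNC against 344 CPM in sh812.

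Of 9 tested nuclear cofactor genes 2 fell. TLE1, a corepressor of the LEF/TCF factors, went from 58.4 and 59.2 CPM to 47.4 and 49 CPM (log2 fold change -0.29, edgeR adjusted p = 0.0139). BCL9L, a coactivator that binds beta-catenin, went from 130 and 127 CPM to 115 and 107 CPM (log2 fold change -0.21, edgeR adjusted p = 0.0359). Both calls were lost without either sh812 library, and that of BCL9L also with the length trend removed (edgeR adjusted p = 0.154). PYGO2, the most abundant cofactor gene per kb, was at 82.9 CPM in shNC against 91.5 CPM in sh812 (edgeR adjusted p = 0.19, and 0.0227 without shNC replicate 2).

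In the group of genes listed as Wnt targets reported elsewhere, 2 of 12 tested genes were called, both lower. Each gene was listed under a single role, so this count leaves out any target listed under another role. RNF43, which was called higher, stands in the R-spondin group and is not counted here. Of all genes tested, 10.8% were called in either direction and 5.42% lower. AXIN2, a target counted among the 10 genes and not in this group, was not called (edgeR adjusted p = 0.712). TNFRSF19, a receptor of the tumor necrosis factor family, went from 12.2 and 12.7 CPM to 8.55 and 8.61 CPM (log2 fold change -0.54, edgeR adjusted p = 0.00961). TBX3, a T-box transcription factor, went from 140 and 132 CPM to 113 and 103 CPM (log2 fold change -0.34, edgeR adjusted p = 0.00159). The TNFRSF19 call was lost without either sh812 library (0.0806 and 0.0643), and that of TBX3 without sh812 replicate 2 (0.109). FOSL1, the most abundant target gene per kb, was at 737 CPM in shNC against 756 CPM in sh812. The median log2 fold change of the 12 tested targets was -0.16, against -0.006 over all genes tested.

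**Figure D4:**
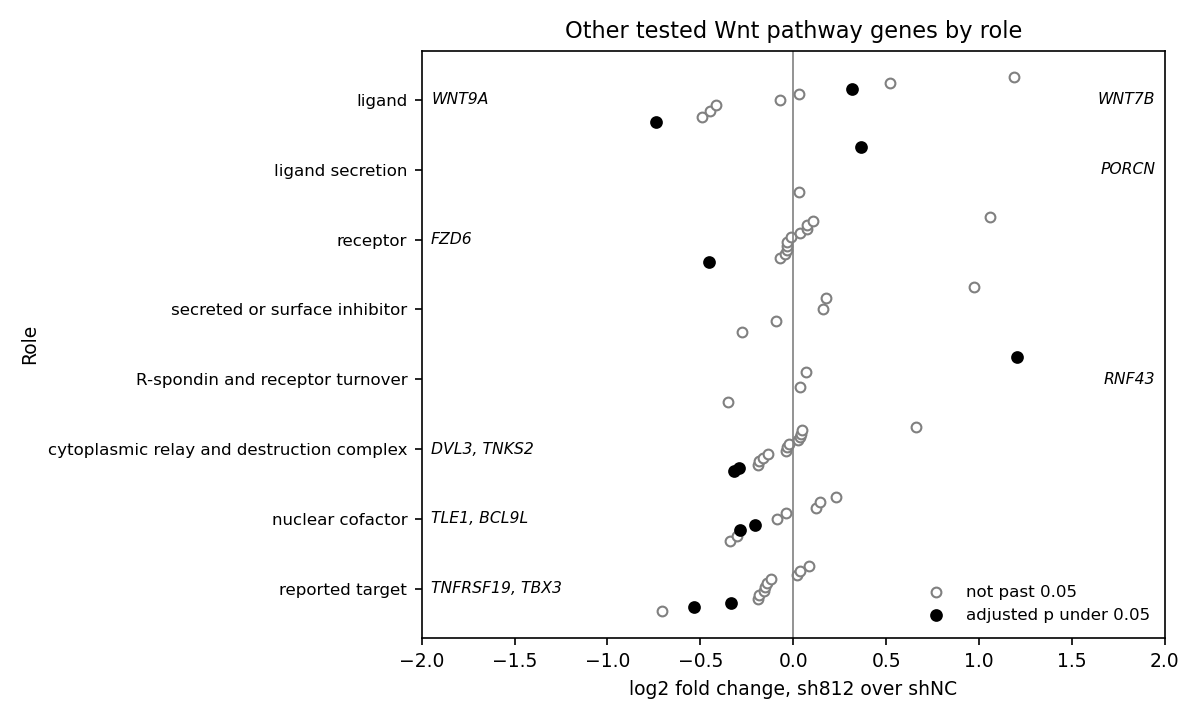
Log2 fold change of sh812 over shNC for the 67 tested genes of the Wnt list, one row of points per role, with filled points and gene names for the 3 genes called higher (right) and the 8 called lower (left). Calls in both directions occur among the ligands, and most open points lie close to 0.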

How the data were processed

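The authors deposited 1 table of raw counts per gene with a column for each of the 4 libraries. All values are integers, and library totals differ. The submitters' processing notes name fastp, STAR 2.7.1a, featureCounts, DESeq2 and the hg38 build, without their roles. The annotation release and the strand setting are not given in the sources used here.

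Counts were tested across all genes with edgeR 4.0.16 in R 4.3.3 (filterByExpr, TMM, glmQLFit and glmQLFTest, no covariate), which kept 16802 genes, with Benjamini-Hochberg adjustment. The standard error was taken from the F statistic. CPM values use TMM-adjusted library sizes. Lengths, positions and overlaps come from GENCODE 29, matched by Ensembl identifier. Intervals are 95% and come from the same fit. Fits were checked on simulated counts with changes placed in genes drawn at random. The test called 68% of genes with a true log2 change of 1 in either direction. It called 54.2% of those with 0.5, and made 8 false calls. A gene that was not called may therefore still have changed. The chi-square statistic per gene between replicates was 8.43 in shNC and 4.51 in sh812, above sampling noise. Each library was treated as 1 replicate, and these values cannot show whether the replicates were separate cultures.

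The 10 genes and the lists were chosen with earlier results of these data known. Named are the 10 genes, METTL3, called genes of the Wnt list, the gene with the highest level per kb in each role, the 3 genes closest in pattern to LEF1 and to DKK1, and cell type markers, some of which are not reported here. Alternatives were RLE, upper quartile and library size scaling, no filter, a mean CPM of at least 1, DESeq2 1.42.0, limma-voom (limma 3.58.1), the replicate number as a block, each library left out, a prior count of 2, and removal of the length trend (lowess span 0.3). Halved counts were added after seeing the data, because many low counts are even.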

Additional observations from a re-analysis of the deposited data

How the results depend on the processing

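WNT5A and TCF7L1 were called lower, and METTL3 as well, in each alternative that gave a new test, and the number of called genes among the 10 changed only with the length trend removed, which added CTNNB1 as 1 higher call (0.17). Library size alone gave 561 higher and 1328 lower calls over all genes, and 17 calls in the Wnt list, of which 14 were lower. The list median was then -0.08, and that of all genes tested moved as well, to -0.05. This scaling also turned the uncalled values of WLS (-0.013) and FOSL1 (-0.008). DESeq2 gave 585 lower calls over all genes. With the length trend removed FOSL1 was at -0.065 and DKK1 at -0.102. The causes were not tested.

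Leaving out a library leaves 1 sample in a group, which is then assumed to vary like the other group. Calls over all genes ran from 587 without sh812 replicate 1 to 3252 without shNC replicate 2, with 261 to 1703 higher and 326 to 1549 lower. In the Wnt list they ran from 4 to 20, with 1 to 8 higher and 3 to 12 lower, and the list median ran from -0.074 to -0.023. Signs of uncalled genes turned for TCF7 (-0.027 without shNC replicate 2, -0.021 without sh812 replicate 2, up to 0.14 without shNC replicate 1), DKK1 (0.000383 without shNC replicate 2, down to -0.029 without shNC replicate 1) and WLS (-0.056 without shNC replicate 1, up to 0.127 without shNC replicate 2). METTL3 ran from -2.52 to -2.33.

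Replicates carry the numbers 1 and 2 in each group, no shared batch is labelled, and deviations of same-numbered libraries had a correlation of 0.0164 across genes. With the replicate block 2001 genes were called, 2 of the 10 genes (WNT5A at -0.54, TCF7L1 at -0.74) and 12 of the Wnt list, and METTL3 was at -2.42. With halved counts LEF1 was at 0.73 (edgeR adjusted p = 0.254). LEF1 had 23 to 58 counts in a library, and the part of this depth in its wide interval was not tested.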

Other observations

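The most frequent sequence context of m6A, written here as GGACT in the DNA letters of the transcript, was counted in the longest annotated coding transcript of each gene. LEF1 had 1 match, or 0.29 per kb, against a median of 0.93 per kb over 19684 coding genes. WNT5A had 4 matches (0.65 per kb) and TCF7L1 5 (1.68 per kb), so the genes that fell lay on both sides of the median. CTNNB1 had 8 matches (1.69 per kb), DKK1 2 (1.12 per kb) and LRP6 19 (1.90 per kb). When genes with a mean log2 CPM above 1 were split by this density into 4 groups of 2843 or 2844, the median log2 fold changes from the lowest to the highest density were 0.005, -0.026, -0.013 and 0.026. A match is no evidence of a methylated site, and m6A was not measured in these libraries.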
